A study of Mus musculus with 7 samples.

Results

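Voltage-gated sodium channels open when a cell is depolarised and carry the inward current that starts the action potential and sets how fast it spreads through the heart. A channel is built on 1 pore-forming alpha subunit, which beta subunits, small proteins with a single membrane span and an immunoglobulin-like domain outside the cell, escort to the membrane and tune in their gating. The genes described here are 6 of the family, the alpha subunit genes Scn4a, Scn7a and Scn10a and the beta subunit genes Scn2b, Scn3b and Scn4b. They were taken by symbol from a table of 23420 gene rows, in which 14 rows bear the name of a sodium channel subunit of this family. The list of 6 was selected on the measured group difference, that is, with the log2 fold changes between the study's groups already known. The levels of these genes in the groups are therefore given as a description, without p-values, and no support is drawn from how they moved.

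Bulk total RNA came from flash-frozen ventricle (the tissue label says whole heart) of untreated mice aged 3 to 6 weeks, 1 library per mouse and 7 in all. The 4 control mice, described as unaffected, were Ctla4+/+;Pdcd1-/- and the 3 ICI-myocarditis mice were Ctla4+/-;Pdcd1-/-. ICI stands for immune checkpoint inhibitor, and the loss of a Ctla4 copy on a Pdcd1-deficient background stands in for the combined blockade of both checkpoints. Every animal lacked Pdcd1, so no group had both checkpoint genes intact, and how the alleles were made, or whether mice shared a litter, is not given in the sources used here. P-values below measure only the spread between these samples.

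Libraries held 20931730 to 39037176 reads assigned to genes. Values are normalized counts, which are reads divided by 1 size factor per library. The ventricular light chain gene Myl2 lay at 48020 or more in every library. Bmp10, an atrial gene, was at 0 in all 7 and Sln, another, reached at most 3.70. The atrial genes Myl4 and Myl7 were low but not absent, at 47.1 to 72.6 and at 2.47 to 48.0 normalized counts. Control 2 stood apart from its group. Its summed T cell markers (Cd3e, Cd3g, Cd4 and Cd8a) came to 1026 normalized counts, against 87.6 to 137 in the other controls and 4449 to 7656 in ICI-myocarditis. Values without that library are given below where they matter. Summed markers of ventricular heart muscle cells ran from 1280147 to 2664387 in controls and from 770510 to 1386814 in ICI-myocarditis, with ICI-myocarditis 3 lowest. In bulk tissue, fewer cells of a type and less RNA per cell cannot be told apart.

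All 6 genes passed the low-value filter, which asks for 10 or more normalized counts in 3 or more libraries. The groups did not overlap for 3 of them: every ICI-myocarditis value of Scn4b and Scn4a lay under the lowest control, and every value of Scn10a over the highest. Over all 15258 genes tested, 28.6% showed no overlap, 11.3% on the lower and 17.3% on the higher side. The same 3 genes passed limma's adjusted threshold of 0.05, as did 15.7% of all genes (4.00% lower, 11.7% higher; 610 and 1787 genes, against 1243 and 2200 under DESeq2 and 311 and 1674 with library size scaling). Since the list was made with this comparison in view, nothing is read from these counts. The other 3, Scn7a, Scn2b and Scn3b, overlapped between the groups.

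**Figure D1:**
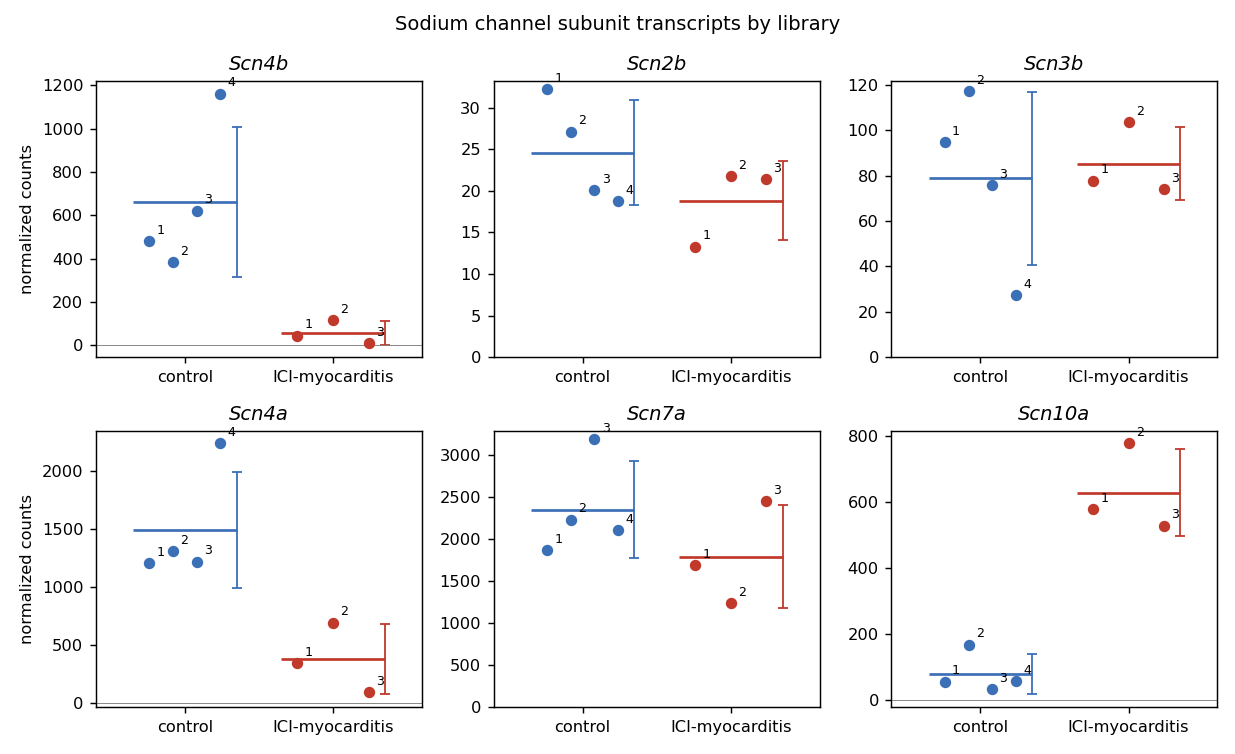
Normalized counts of the 6 genes (vertical axis, linear) in each library, numbered by replicate, with the group mean (horizontal line) and SD (bar) for 4 controls (blue) and 3 ICI-myocarditis libraries (red). The colours separate fully for Scn4b, Scn4a and Scn10a, and mix for Scn2b, Scn3b and Scn7a.

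The beta subunits come first. The protein encoded by Scn4b is tied to the alpha subunit by a disulfide bond, as is that of Scn2b, whereas that of Scn3b binds without one. The gene lies at chr9:45138395-45154152 (GRCm38, plus strand). Scn4b stood at 480, 385, 622 and 1162 normalized counts in controls 1 to 4 and at 44.0, 116 and 9.93 in ICI-myocarditis 1 to 3. Every ICI-myocarditis library lay below every control, with 3.32-fold between the highest of the former and the lowest of the latter. The means were 662 ± 347 (SD, n = 4) and 56.6 ± 54.1 (SD, n = 3), an 11.7-fold difference, and the log2 fold change was -3.97 (SE 0.71). Only 1 of the 15258 genes tested had a lower fold change. The ICI-myocarditis libraries differed among themselves by 11.7-fold as well, from 13 reads in the lowest library upward, so the size of the difference is less well fixed than its side. Without control 2 the log2 fold change was -4.19, and without ICI-myocarditis 3 it was -3.06. The authors' deposited table gives -3.55 (SE 0.639).

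Scn2b (chr9:45117782-45130070) lies next to Scn4b on the same strand, with 8324 bases between them in GENCODE release M21. Its transcript was rare, at 32.3, 27.1, 20.1 and 18.8 normalized counts in controls and 13.3, 21.7 and 21.4 in ICI-myocarditis. The groups overlapped, and the log2 fold change of -0.37 (SE 0.40) was smaller than its error. It ranged from -0.48 to -0.15 with 1 library left out, and was -0.15 without ICI-myocarditis 1 and -0.23 without control 1. With 13 to 32 reads per library, a small difference was not detectable at this depth. A noncoding gene, Gm10684, overlaps Scn2b on the opposite strand. The library kit keeps strand, but its use in counting is not given in the sources used here, so reads of the pair may not be told apart.

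Scn3b (chr9:40269217-40291618, plus strand), is the remaining beta subunit gene of the list. It lay at 94.8, 117, 75.9 and 27.5 normalized counts in controls and at 77.8, 104 and 74.1 in ICI-myocarditis. Control 4 was low, and the other controls overlapped the ICI-myocarditis values. The log2 fold change was 0.27 (SE 0.48). Its sign depended on control 4, since without that library it was -0.16. Gm47266 overlaps this gene on the opposite strand.

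Levels per kilobase of exon allow genes to be set side by side. By that measure (normalized counts per kilobase of merged M21 exons) Scn4b stood at 96.3, 77.3, 125 and 233 in controls 1 to 4. Scn3b reached 17.4, 21.5, 13.9 and 5.04 in the same libraries, and Scn2b 6.93, 5.83, 4.32 and 4.03. Scn4b was thus the highest of these 3 beta subunit transcripts in every control, and Scn2b the lowest. In ICI-myocarditis 1 to 3, Scn4b stood at 8.83, 23.3 and 1.99, Scn3b at 14.2, 19.0 and 13.6, and Scn2b at 2.86, 4.67 and 4.60. There Scn4b was the highest of the 3 only in ICI-myocarditis 2, and in ICI-myocarditis 3 it was the lowest. These levels assume that the M21 exon models hold for the transcripts counted here.

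**Figure D2:**
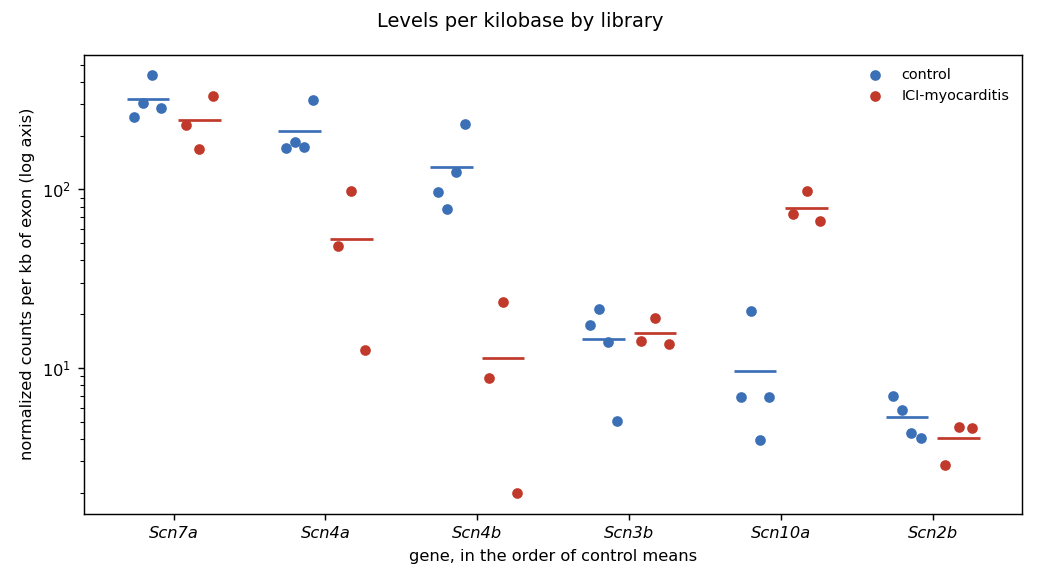
Normalized counts per kilobase of exon (vertical, log axis) of the 6 genes in each of 4 controls (blue) and 3 ICI-myocarditis libraries (red), with the group mean as a line; genes stand in the order of their control means. The blue points of Scn4b lie between 77.3 and 233, above all those of Scn3b, and its red points lie between 1.99 and 23.3, on both sides of the red points of Scn3b.

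Of the alpha subunits, Scn4a (chr11:106318592-106353288, minus strand) encodes the channel of skeletal muscle fibres and is also transcribed at a low level in heart. It had 1199, 1303, 1215 and 2235 normalized counts in controls 1 to 4 and 339, 688 and 88.6 in ICI-myocarditis 1 to 3. The lowest control exceeded the highest ICI-myocarditis library by 1.74-fold. Means were 1488 ± 500.0 (SD, n = 4) and 372 ± 301 (SD, n = 3), and the log2 fold change was -2.38 (SE 0.58). It was -2.43 without control 2, -1.57 without ICI-myocarditis 3 and -3.04 without ICI-myocarditis 2. Scn4a no longer passed limma's threshold without control 1, control 3 or ICI-myocarditis 1, and it did not pass under edgeR. Markers of skeletal muscle fibres were read beside it. Pvalb reached at most 8.70 and Myh2 at most 10.7 normalized counts, and Myh4 exceeded that only in control 1, at 87.7. Other genes of the list were higher. Tnni2 ran from 36.8 to 93.8 in controls and from 41.3 to 158 in ICI-myocarditis. Tnnt3 ran from 6.26 to 28.2 and from 37.9 to 129, and Mylpf from 22.2 to 38.8 and from 19.4 to 24.6. The 8 skeletal muscle markers together gave 109 to 235 normalized counts in controls and 186 to 234 in ICI-myocarditis, and 1 of the 4 tested, Tnnt3, was called higher (log2 fold change 2.18). The part of skeletal muscle in the Scn4a values was not tested.

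Scn4a and Scn4b varied together in part beyond the group difference. Control 4 was the highest of all libraries for both, and ICI-myocarditis 2, 1 and 3 followed each other in that falling order for both. The summed ventricular muscle markers had the same order, at 2664387 in control 4 and 1386814, 1229355 and 770510 in ICI-myocarditis 2, 1 and 3. This order was thus not particular to the pair. Controls 1 to 3 did not share an order for the pair. Among them, Scn4a was highest in control 2, at 1303 normalized counts, where Scn4b was lowest, at 385. The deviations of the 7 libraries from their group means correlated with r = 0.97 on the log2 scale, given as a description of 7 points that share library and size factor. For the other 14 pairs of the 6 genes this r lay between -0.78 and 0.61. Their ratio differed between the groups. Per kilobase, Scn4a had 1.36 to 2.39 times the level of Scn4b in controls and 4.20 to 6.31 times in ICI-myocarditis.

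Both genes are transcribed in heart muscle cells. The 8 ventricular markers of these cells had a median log2 fold change of -0.84, with 0 of 8 called. Relative to 100000 summed counts of these markers, Scn4b came to 21.4, 30.1, 32.4 and 43.6 in controls and 3.58, 8.36 and 1.29 in ICI-myocarditis. Scn4a came to 53.4, 102, 63.2 and 83.9 in controls and 27.5, 49.6 and 11.5 in ICI-myocarditis. The groups stayed apart for both genes on this scale, with mean log2 differences of -3.19 for Scn4b and -1.55 for Scn4a. For Scn4a the gap had narrowed to 49.6 against 53.4.

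**Figure D3:**
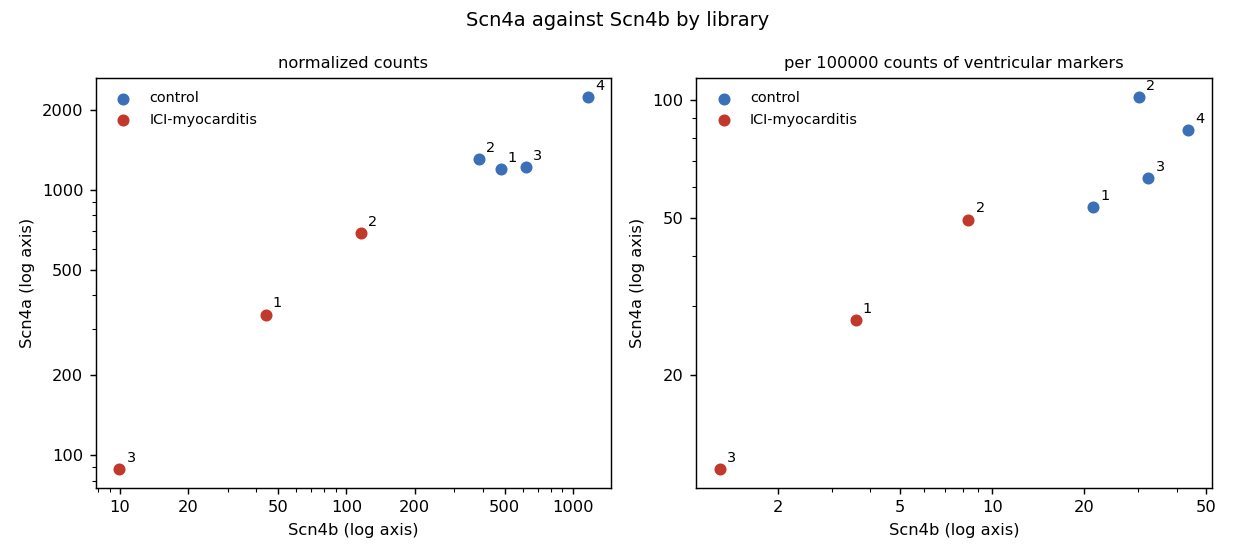
Scn4a (vertical, log axis) against Scn4b (horizontal, log axis) in each library, numbered by replicate, as normalized counts (left) and per 100000 counts of 8 ventricular muscle markers (right). The 3 ICI-myocarditis libraries (red) lie below and to the left of the 4 controls (blue) in both panels, in the order 2, 1, 3.

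Because Scn4a and Scn4b were low together, the sequence before the RefSeq start of each gene was read from the RefSeq promoter table (GRCm38.p6). A window was given for 5 of the 6 genes, all but Scn3b. By M21 coordinates these windows are not wholly upstream. Those of Scn4a and Scn10a lie within their genes. Those of Scn4b and Scn2b run partly into theirs, and that of Scn7a by a few bases. Shown here are the bases before the start of Scn4a (chr11:106349391-106349640, minus strand, which overlaps an exon of a noncoding M21 transcript of the gene) and the part of the Scn4b window that lies before any M21 exon of the gene (chr9:45138374-45138394, plus strand). Capitals mark CG pairs, the sites of DNA methylation and the hallmark of CpG-island promoters.
Scn4b: gtCGtcCGcagCGggcaagcc
Scn4a: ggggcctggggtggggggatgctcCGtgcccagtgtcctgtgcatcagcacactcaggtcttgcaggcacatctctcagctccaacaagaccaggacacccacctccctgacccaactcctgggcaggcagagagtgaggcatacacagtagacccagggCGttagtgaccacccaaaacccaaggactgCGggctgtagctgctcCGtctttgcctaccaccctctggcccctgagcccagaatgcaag

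The pair did not look alike. The 250 bases before the RefSeq start held 23 CG pairs for Scn4b and 4 for Scn4a, against a median of 6 over 32851 windows of that length. Scn10a had 8, Scn7a 3 and Scn2b 1. Both strands were searched for 6 motifs, which can overlap one another. The E-box (CANNTG), bound by helix-loop-helix factors, occurs in 66.2% of all windows. The T-box motif, AGGTGT, to which factors such as those of Tbx3 and Tbx5 bind, occurs in 11.8%. A GATA site, here AGATAA, was found in 9.99% of windows, and the STAT-type palindrome TTCNNNGAA, a motif of interferon and cytokine signalling, in 7.02%. The share was 12.4% for a TATA box, searched as TATAAA, and 0.508% for a MEF2 site. None of the 6 was in the windows of Scn4b, Scn4a or Scn10a, which says only that these letters are not there. Scn7a had an E-box and a GATA site, and Scn2b held 2 E-boxes and a STAT-type palindrome.

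Scn10a (chr9:119608456-119719322, minus strand) went the other way. It encodes the alpha subunit best known from pain-sensing neurons, where it resists tetrodotoxin. Scn10a had 54.4, 167, 31.3 and 55.1 normalized counts in controls 1 to 4 and 578, 777 and 527 in ICI-myocarditis 1 to 3. The lowest ICI-myocarditis library was 3.17-fold above the highest control, which was control 2. Means were 76.8 ± 60.8 (SD, n = 4) and 627 ± 132 (SD, n = 3), an 8.17-fold difference, and the log2 fold change was 3.27 (SE 0.49). Without control 2 it was 3.74. The 3 ICI-myocarditis libraries spanned 1.47-fold, against 11.7-fold for Scn4b. The table has 1 value per gene, so a full-length and a shorter transcript of Scn10a cannot be told apart.

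Per kilobase, Scn10a stood at 9.64 ± 7.64 (SD, n = 4) in controls and at 78.8 ± 16.6 (SD, n = 3) in ICI-myocarditis. Per 100000 counts of ventricular muscle markers, Scn10a came to 1.63 to 13.0 in controls and 47.0 to 68.4 in ICI-myocarditis. Markers of neurons differed in level. Of 8, Th was at 0 in all libraries, and Chat, Snap25 and Elavl4 stayed below 10 normalized counts. Dbh, at 156 ± 18.7 (SD, n = 4) and 69.7 ± 58.3 (SD, n = 3), was not called. Prph was low but did not overlap, at 4.47 to 7.51 in controls and 12.2 to 21.5 in ICI-myocarditis (adjusted p from limma 0.0906). It passed the low-value filter only through ICI-myocarditis, so nothing is read from its side. Tubb3 stood at 13.8 to 53.0 in controls and 363 to 1155 in ICI-myocarditis. Of the 3 neuron markers tested, Tubb3 alone was called, and it was higher (log2 fold change 4.68, adjusted p from limma 0.00251). In ICI-myocarditis it made up most of the sum over the list. That sum ran from 188 to 197 in controls and from 465 to 1181 in ICI-myocarditis. All 4 T cell markers were called higher as well, and control 2 was again the highest control for their sum. The part of other cell types in the Scn10a difference was not tested.

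Scn7a (chr2:66673425-66784914, minus strand) encodes an atypical alpha subunit that responds to extracellular sodium rather than to voltage and is found in glial cells of peripheral nerves as well as in muscle. It had the highest level per kilobase of the 6 genes in every library but control 4, where Scn4a was higher. Normalized counts were 1873, 2232, 3191 and 2108 in controls and 1686, 1241 and 2451 in ICI-myocarditis. The groups overlapped through ICI-myocarditis 3, and the log2 fold change was -0.42 (SE 0.27). Leaving out 1 library moved it from -0.67 (without ICI-myocarditis 3) to -0.18 (without ICI-myocarditis 2), and it was -0.26 without control 3. Markers of Schwann and other glial cells summed to 578 to 879 normalized counts in controls and 325 to 441 in ICI-myocarditis. Within that list of 8, 2 of 7 tested genes were called lower and 1, Ncmap, higher. Ncmap was under 10 in every control and passed the low-value filter only through ICI-myocarditis, so nothing is read from its side. The part of glial cells in the Scn7a values was not tested.

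The 6 genes thus differed in level as well as in direction. In controls the order per kilobase was Scn7a (320 ± 79.0), Scn4a (211 ± 71.0), Scn4b (133 ± 69.7), Scn3b (14.4 ± 6.99), Scn10a (9.64 ± 7.64) and Scn2b (5.28 ± 1.36; SD, n = 4). Control ranges overlapped between Scn4a and its neighbours on either side and among the last 3, but not between Scn4b and Scn3b. In ICI-myocarditis the order was Scn7a (244 ± 83.4), Scn10a (78.8 ± 16.6), Scn4a (52.8 ± 42.8), Scn3b (15.6 ± 2.95), Scn4b (11.4 ± 10.9) and Scn2b (4.04 ± 1.03; SD, n = 3). There, each range overlapped with the next in the order except that of Scn7a with Scn10a. Scn10a thereby ranked below Scn4b and Scn3b in controls and above both in ICI-myocarditis.

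Of the other rows of the family, Scn3a and Scn2a1, alpha subunits best known from neurons, were not called. Their log2 fold changes were -0.74 ± 0.43 (SE) and 0.06 ± 0.58 (SE), with adjusted p from limma of 0.287 and 0.962. The sign for Scn2a1 changed without control 4 (-0.37) and without ICI-myocarditis 3 (-0.35). Scn1a, Scn8a, Scn9a and Scn11a were near 0 and not tested, with at most 17.3 normalized counts in any library.

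Channel partners were compared through a list of 20 genes for fibroblast growth factor homologous factors, ankyrins, syntrophin, caveolin and other proteins that bind, anchor or regulate sodium channels. Of these, 19 were in the table and 18 passed the filter. The median log2 fold change was -0.54, against -0.02 over all genes tested, with 16 below 0 and 2 above. A single one, Nfasc, was called over all genes, and it was higher. Nfasc, which encodes the adhesion protein neurofascin of nodes and axon initial segments, had 12.1, 1.23, 1.12 and 1.25 normalized counts in controls and 15.3, 13.0 and 42.8 in ICI-myocarditis. Its log2 fold change was 2.65 ± 0.78 (SE), with an adjusted p from limma of 0.0482. These are few reads, and 10 of 16 alternatives lost the call, among them leaving out any 1 library other than control 1 (adjusted p 0.021 to 0.240 over all 16). Among the controls only control 1 reached 10, so Nfasc passed the low-value filter through ICI-myocarditis. Nothing is therefore read from its direction. Dlg1, encoding a scaffold protein, and Ank2, encoding ankyrin-B, had the lowest p-values of those not called. Their log2 fold changes were -0.47 (SE 0.17, limma adjusted p = 0.0935) and -0.82 (SE 0.30, limma adjusted p = 0.104). Dlg1 ran from 2819 to 3230 normalized counts in controls and lay wholly below that in ICI-myocarditis, from 2103 to 2298. Ank2 overlapped, and it was called, with Gpd1l, when control 2 was left out. Of the 18, 5 were apart on the lower side and 1 on the higher, against 11.3% and 17.3% of all genes, and the 1 call stands against 15.7% of all genes.

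Scn10a and Scn4b have been studied in the conduction system, so 16 genes of that system and its transcription factors were read as a second list. All 16 were tested, with a median log2 fold change of -0.26, 13 below 0, and 2 called, both higher. Of all 15258 genes, 7917 were below 0, 15.7% were called and 11.7% were called higher, so the share called in this list is near that of all genes. Id2, an inhibitor of helix-loop-helix transcription factors that is also expressed by lymphocytes, rose by 2.53 ± 0.45 (SE) on the log2 scale, with an adjusted p from limma of 0.00762, from 175, 503, 529 and 194 normalized counts in controls to 1660, 1253 and 2755. Id2 kept its call in all 16 alternatives. Tbx3, a repressor of the working muscle programme in conduction tissue, was at 592 to 1462 in controls and 390 to 605 in ICI-myocarditis. Its log2 fold change of -0.96 ± 0.32 (SE) had an adjusted p from limma of 0.0726. Etv1, a factor of fast-conducting muscle, ran from 416 to 479 in controls and from 253 to 385 in ICI-myocarditis, a log2 fold change of -0.54 ± 0.21 (SE; adjusted p from limma 0.121). Neither passed, but Tbx3 did so without control 4, with the replicate block and under DESeq2 (adjusted p 0.0223), that is, in 3 of 16 alternatives (adjusted p 0.0176 to 0.210). Cntn2, a Purkinje cell marker that was chosen for mention after its values were seen, ran from 245 to 992 in controls and from 76.4 to 457 in ICI-myocarditis. It overlapped between the groups and was not called (log2 fold change -1.13, SE 0.63, adjusted p from limma 0.266). Gja5, Irx3, Nkx2-5 and Cpne5 of the same list are named only to be set beside it. Their log2 fold changes were -0.30, 0.09, -0.06 and -0.07, and none was called.

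**Figure D4:**
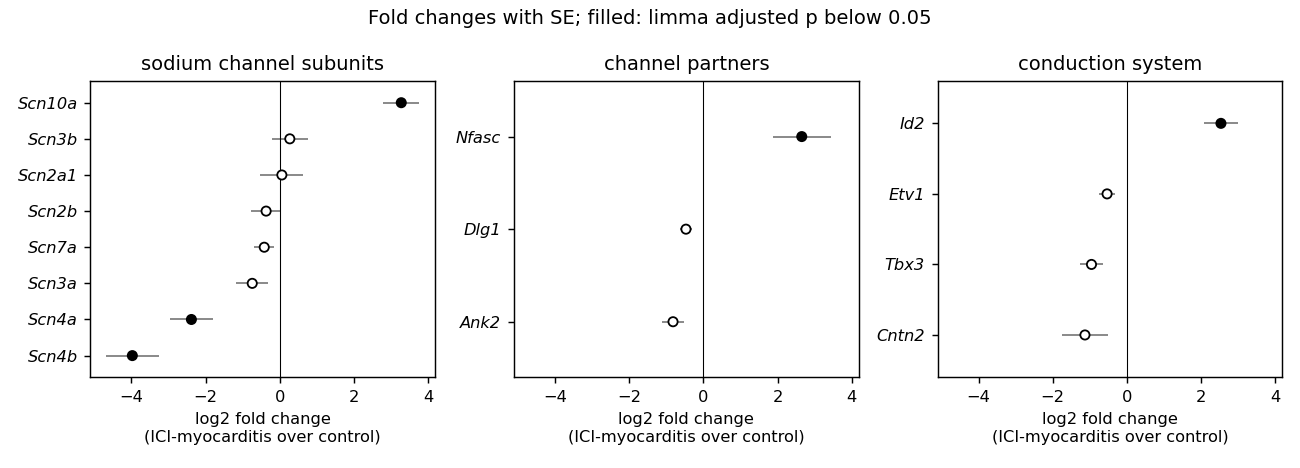
Log2 fold change of ICI-myocarditis over control (horizontal axis) with its standard error (bars) for the 6 genes with Scn3a and Scn2a1 (left) and for named channel partners (middle) and conduction system genes (right); filled points passed limma's adjusted p of 0.05 over all genes. Scn4b at -3.97 and Scn10a at 3.27 lie farthest from 0 of all points drawn.

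Genes whose profile over the 7 libraries was most like each of the 6 were sought among 12317 tested genes with a mean of at least 50 normalized counts. Pearson's r on the log2 scale describes 7 points that fall into the study's groups and share their size factors. For Scn4b these were Syde2, Dcaf12l1 and Slc25a22 (r from 0.992 to 0.997). Their own log2 fold changes were -0.89, -2.45 and -0.98, smaller than that of Scn4b. For Scn4a they were Sema6c, Aif1l and Slc36a2 (0.989 to 0.993), with fold changes of -1.16, -1.20 and -2.17. For Scn10a they were Kif18b and Ube2c, which act in mitosis, and Gjd3, a connexin gene (0.994 to 0.999), with fold changes of 1.94, 2.39 and 5.56. Scn7a was closest to Plekhb1 (0.981), ahead of Zfp330 and Kcnt2. Scn2b was closest to Ylpm1, Fam171a1 and Trp53i11 (0.979 to 0.992), and Scn3b to Crebzf, Hjurp and Fam132b (0.965 to 0.969). For Scn4b, Scn4a and Scn10a the r of deviations from group means with these genes lay between 0.965 and 0.996. For Scn7a, Scn2b and Scn3b it lay between 0.955 and 0.993. The genes were picked as the closest of 12317 over the same 7 libraries, so high values follow largely from that choice.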

How the data were processed

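The authors deposited 1 table of bulk RNA-seq values per gene and library. Reads were aligned with STAR 2.7.3 to GRCm38, per the submitters' processing notes; the counting program, annotation and strand setting are not given in the sources used here. The authors deposited a signal for each gene and library, that is, reads scaled by a size factor of the library. In units of the smallest step of its column every value was whole, to within 0.00092. For control 1 the step is so close to 1 that this is weaker evidence. The table also holds the authors' log2 fold change with its SE, a test score and p-values before and after adjustment, per the file headers.

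The comparison used limma 3.58.1 (R 4.3.3; trend, robust variance) on log2(normalized count + 1), with Benjamini-Hochberg adjustment over the 15258 genes with at least 10 in at least 3 libraries. This scale understates the change of low genes. Alternatives used edgeR 4.0.16 and DESeq2 1.42.0 on recovered reads, other pseudocounts, filters and scalings, and left-out libraries. The fits were tested on simulated counts. Exon lengths and positions are from GENCODE M21 (GRCm38). The 27 rows whose names had become dates stayed in the fit.

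Members and lists were chosen with earlier results of these data known. Named genes are all members, other family rows past the filter, called partner and conduction genes with the 2 lowest p-values not called in each list, and the 3 genes most like each member; a few genes that the rule takes in are not reported here. Marker lists were heart muscle (ventricular, atrial), skeletal muscle, glia, neuron, fibroblast, endothelium, T cell and macrophage. Summed fibroblast, endothelial, macrophage and atrial markers ran from 22863 to 39064, 21273 to 55485, 5748 to 6854 and 56.5 to 124 normalized counts in controls, and from 41424 to 78707, 13475 to 20406, 21106 to 42113 and 52.2 to 72.6 in ICI-myocarditis.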

Additional observations from a re-analysis of the deposited data

Results flagged for a closer look

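Among the 4 controls, 26 results were checked for a library whose gap to its nearest neighbour exceeded Dixon's 95% critical value as a share of the group's range on the log2 scale, which chance exceeds in about 1 of 20 groups. It was exceeded 4 times. Control 4 was high for Scn4a (gap 0.867 of the range). Without that library the log2 fold change of Scn4a was -2.17 in place of -2.38. Control 1 was high for Nfasc (0.966) and for Etv1 (0.921), and control 3 was high for the summed atrial markers (0.845). These libraries were 3 different ones, and control 2 was not among them.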

How the results depend on the processing

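Over 16 alternatives, Scn4b and Scn10a kept direction and call in all, with log2 fold changes from -4.77 to -3.06 and from 2.95 to 3.85. Scn4a kept its direction (-3.04 to -1.57) and lost its call in 4. Without control 2 and ICI-myocarditis 3 together the values were -3.28 for Scn4b, -1.62 for Scn4a and 3.85 for Scn10a. The count of called members was 3 or 2 throughout. Since the members were selected on this difference and the alternatives refit the same libraries, no support is drawn from calls that were kept. The count of called genes was 2397. It moved by over 1.5 times without control 1 (1508), control 3 (1298), ICI-myocarditis 2 (1396) and ICI-myocarditis 3 (986), and was 3340 without control 2. Leaving out 1 library gave called members 2 to 3, other family genes 0 to 1, partners 0 to 2 and conduction genes 2 to 3. The count of called genes among the other family rows was 1, and 0 with no filter on low values, without limma's trend and robust variance, with the replicate block, and without control 2 and ICI-myocarditis 3 together, an alternative added after seeing the data. Called partners numbered 0 with a pseudocount of 0.5, under edgeR, with the replicate block and without those 2 libraries, 3 under DESeq2 (Dlg1, Nfasc and Ank2) and 2 without trend and robust variance (Nfasc and Fgf12). The cause was not tested. Library size scaling moved the median log2 fold change of all genes to 0.14, from -0.02. Signs reversed for Scn3b (-0.16 with the replicate block and without control 4) and for Scn2a1 (-0.37 in both of these, -0.35 without ICI-myocarditis 3 and -0.31 without control 2 and ICI-myocarditis 3 together). With 1 library left out, Scn3b ranged from -0.16 to 0.52 and Scn2a1 from -0.37 to 0.50.

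Outside the replicate block, replicate numbers were used only to name the mice. Deviations of same-numbered libraries correlated with r = -0.27, -0.21 and -0.08, and those of differently numbered ones with -0.48 to 0.45. So few pairs cannot show whether the numbers carry a pairing. The replicate block, which leaves control 4 without a partner, gave 1780 called genes, 3 members and 4 conduction genes (with Tbx3 and Cntn2 among them).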
